A study of Mus musculus with 15 samples.

Results

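Tumour-associated macrophages of 2 origins were compared for how they differed when they carried lipid. The comparison used all 15 of the 15 bulk RNA-seq libraries: microglia (4 libraries), lipid-laden microglia (4), monocyte-derived macrophages (MDM, 4) and lipid-laden MDM (3). A gene's effect of lipid load is its log2 fold change of lipid-laden over other cells of the same origin. The quantity described here is the difference of the effects, the effect in MDM minus the effect in microglia, so that a positive value is a change more positive in MDM. All 4 groups came from primary brain tumours of mice labelled Ink4a/ArfKO, PDGFB, a glioma model in which platelet-derived growth factor B is expressed in Nestin-positive progenitor cells on an Ink4a/Arf-knockout background. Knockout and growth factor are therefore common to every group, and no group comes from a tumour-free brain. Cells were purified by flow cytometry, but the gates for lipid load and origin and the age of the mice were not found in the labels used here. The titles carry a number (224, 221, 431 or 718), and nothing in the labels says whether a number is a mouse, so the p-values measure the spread between these libraries. For number 431, lipid-laden MDM were not analysed here. Library totals ran from 7798952 to 11419338 counts. Cdkn2a, the gene that encodes the Ink4a and Arf proteins, had 0 to 17 counts per library, and a table per gene does not show which exons these came from.

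Microglia are the resident macrophages of the brain, settle there before birth and keep a set of genes that depends on transcription factors such as Sall1. MDM enter brain tumours from the blood and have monocyte and antigen-presentation genes that microglia express weakly. Macrophages that take up lipid-rich debris store it as cholesteryl esters and triglycerides in droplets, digest it in lysosomes and export sterols through transporters such as Abca1.

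The effect of lipid load differed between the origins in 375 of 14843 genes tested, which is 2.53% (adjusted p under 0.05, edgeR's quasi-likelihood test with Benjamini-Hochberg adjustment). Of these called genes, 237 (1.6% of the genes tested) had the more positive effect in MDM and 138 (0.93%) the more negative. The size of the difference had a median of 1.79 on the log2 scale among the called genes, and it was at least 1 in 338 of them. Without the 4 libraries numbered 718, which leaves 2 in the smallest group, only 2 genes passed, Jak2 and Tmem144 (named after their values were seen). In that fit 375 of the 375 differences kept their sign, stayed at an unadjusted p under 0.05 and had a median size of 1.79. The 375 were chosen by a fit that holds the same remaining libraries. Such agreement was therefore largely set by the choice and is no separate support. Leaving out a single library gave 186 to 452 calls. The lowest counts were 186 without lipid-laden MDM 718, 231 without microglia 224 and 245 without lipid-laden MDM 224.

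Most of the called genes had effects of opposite sign. The fitted effects pointed in opposite directions in 282 of the 375 (1.9% of the genes tested), against 7009 of all 14843 genes. Calling genes by the difference of the 2 effects itself favours opposite signs. The higher share among the 375 therefore describes them and adds no separate evidence. Among the 282, 166 were higher with lipid in MDM and lower in microglia, and 116 were the reverse. Signs here are point estimates, and a stricter count that required an unadjusted p under 0.05 for each effect left 79 genes (0.532% of those tested), 40 of them higher in MDM and 39 lower. Over all 14843 genes, called or not, 125 (0.842%) met the same requirement. Of the 93 called genes with effects of the same sign, 92 had the larger effect in MDM (70 up in both, 22 down in both), and the exception was Kynu. Just inside the threshold were Arpc3 (adjusted p = 0.0496) and Rpl18 (0.0498), and Bnip3l (0.0501) and Dpp7 (0.0504) lay just outside.

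The larger share of the difference lay on the MDM side. The effect of lipid load in MDM alone passed the test in 1213 genes (8.17%), 773 higher (5.21%) and 440 lower (2.96%), and in 341 of the 375. In microglia alone no gene passed with edgeR (0.0%), and 1367 (9.21%) had an unadjusted p under 0.05, among them 103 of the 375. Among the called genes the size of the effect had a median of 1.51 in MDM and 0.333 in microglia, against 0.51 and 0.331 over all genes tested. The lipid-laden and other MDM libraries did not overlap in 356 of the 375, and in 21.8% of all genes tested. The lipid-laden and other microglial libraries did not overlap in 61 of the 375, and in 5.46% of all genes tested. The 375 were called by a difference that contains both effects in these same libraries. Their counts and medians here therefore describe the called genes and add no separate evidence.

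**Figure D1:**
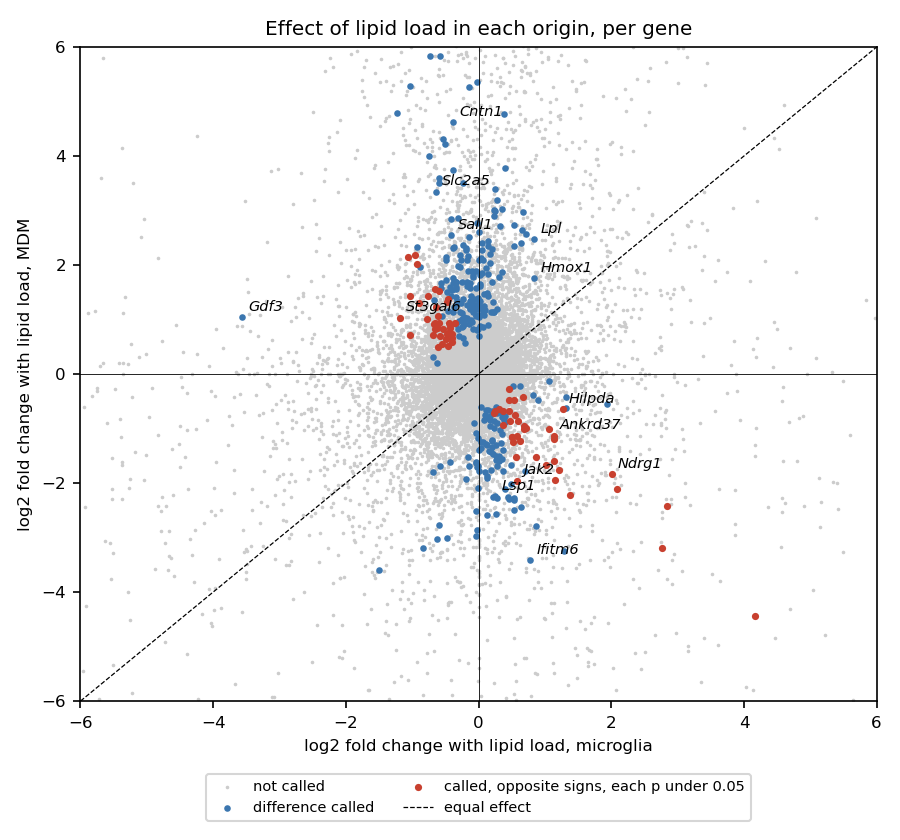
Log2 fold change with lipid load in microglia (horizontal axis) and in MDM (vertical axis), 1 point per gene. Grey points were not called, blue points had a called difference, red points were called with opposite signs, each effect at an unadjusted p under 0.05, and the dashed line marks equal effects. The axes stop at 6 in each direction, and 327 genes (30 called) lie beyond them. Most of the coloured points stretch further along the MDM axis than along the microglial axis, while Ndrg1 and Gdf3 also lie far out in microglia.

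Lipid-laden MDM were nearer to microglia than other MDM were, gene by gene. Of the 237 genes with the more positive effect in MDM, 228 were lower in MDM than in microglia without lipid load, and 2 were higher. Of the 138 with the more negative effect, 133 were higher in MDM without lipid load and 0 were lower. Over all genes tested, the origins differed in 3442 genes without lipid load (23.2%) and in 413 with it (2.78%). The gap between the origins among the 375 had a median size of 2.04 without and 0.444 with lipid load (0.631 and 0.411 over all genes). These gaps use the same libraries as the difference of effects, so they describe the called genes and add no separate evidence. The lipid-laden MDM mean lay between the means of MDM and of lipid-laden microglia in 262 of the 375, and in 7747 of the 14843 genes tested.

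Marker lists of these and other cell types also differed between the groups. The summed level of 27 homeostatic microglia markers was 20200 to 30500 CPM (read counts scaled to library sizes adjusted by TMM) in microglia, 14100 to 32100 in lipid-laden microglia, 7710 to 9200 in MDM and 14400 to 19200 in lipid-laden MDM. The 29 monocyte and MDM markers summed to 2030 to 3130, 2750 to 3910, 12900 to 14400 and 8330 to 10900 CPM in the same order. In that order again, 19 conventional dendritic cell markers summed to 1370 to 1830, 1040 to 1730, 2560 to 4390 and 1420 to 1940 CPM. The lipid-laden MDM libraries thus stood between MDM and microglia in the microglial and monocyte sums, and below all MDM in the dendritic sum. The 19 T and NK cell markers summed to 65.7 to 98.8, 66.7 to 173, 389 to 457 and 129 to 255 CPM, and the 17 glioma and progenitor markers to 175 to 617, 249 to 682, 16.6 to 28.9 and 113 to 193 CPM. The 12 endothelial and mural markers summed to 74.5 to 217, 77.9 to 563, 55.4 to 192 and 86.5 to 200 CPM. Their effect in microglia was positive in 10 of 12, against 7060 of all 14843 genes. Col1a1, for example, had means of 5.68 CPM in microglia and 62.1 CPM in lipid-laden microglia. The 10 neutrophil and mast cell markers summed to 305 to 447, 252 to 466, 284 to 400 and 315 to 888 CPM, with 888 in lipid-laden MDM 224. Some markers were at 0 counts: Cd209a, Clec9a and Dpp4 of dendritic cells in lipid-laden microglia, Ncr1 of NK cells in both microglial groups, and the glioma gene Neu4 in both MDM groups. Other members of the same lists were detected there. Ccr7, Kit and Xcr1 had 231, 113 and 107 counts in lipid-laden microglia. Lck had 107 counts in microglia and 84 in lipid-laden microglia, and Pdgfra had 85 in MDM and 673 in lipid-laden MDM. A marker at 0 therefore does not show that its cell type was absent. The part of these cells in the results was not tested, and in bulk samples fewer cells of a type and less RNA per cell cannot be told apart.

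Among hypoxia-induced genes and glycolytic enzymes, the called members had opposed effects, with a higher mean with lipid in microglia and a lower one in MDM. Of the 35 genes of this list that were tested, 7 were called, with 0 more positive and 7 more negative in MDM: Ndrg1, Hilpda, Ankrd37, Hk1, Ldha, Pfkp and Vegfa. The list's median difference was -0.59 (0.10 over all genes), with a median effect of 0.10 in MDM and 0.68 in microglia. In microglia 32 of the 35 had a positive effect, and in MDM 19 did, so the list as a whole was not lower in MDM. Over all 14843 genes tested, 7060 effects were positive in microglia and 7747 in MDM. Opposite signs were found in 17 of the 35, against 47.2% of all genes tested.

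The promoters of Ankrd37 and Ldha are shown because both genes were called in this list and their windows hold the hypoxia response core ACGTG, to which hypoxia-inducible factors bind. The windows are the bases before the RefSeq start on build GRCm38.p6. Ankrd37 is chr8:45999868-46000100 on the minus strand, without the last 17 bases of its window, which GENCODE M21 annotates as exon. Ldha is chr7:46845554-46845803 on the plus strand, inside the first intron of a longer Ldha transcript in GENCODE M21. Capitals mark ACGTG on either strand, and the palindrome CACGTG matches on both strands.
Ankrd37: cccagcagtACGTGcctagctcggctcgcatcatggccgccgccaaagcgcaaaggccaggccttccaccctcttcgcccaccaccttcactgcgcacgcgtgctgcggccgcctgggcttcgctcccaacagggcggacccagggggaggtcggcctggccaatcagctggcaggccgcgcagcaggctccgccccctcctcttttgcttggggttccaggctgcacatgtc
Ldha: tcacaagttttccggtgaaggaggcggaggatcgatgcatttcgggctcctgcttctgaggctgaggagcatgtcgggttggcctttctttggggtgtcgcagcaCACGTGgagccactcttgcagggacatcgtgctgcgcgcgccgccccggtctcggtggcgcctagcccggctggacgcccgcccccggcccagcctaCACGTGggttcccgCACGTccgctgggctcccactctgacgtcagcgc
The full windows of 250 bases held 2 matches for Ankrd37 and 5 for Ldha, counted on both strands. A second Ldha window held none. Hilpda and Vegfa each had 1 match in 1 of 2 windows, the Hk1 and Pfkp windows held none, and Ndrg1 had no window. Counts were also made over the genes named for the largest differences or the opposed effects with the smallest p. Among those with a window, 2 of 16 more negative in MDM and 1 of 13 more positive had a match. Of all 27025 genes with a window, 18.5% have a match. These matches are letters in a window and show no binding.

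Ndrg1, a stress-induced gene strongly raised by low oxygen, had the largest difference of the list. In the order of numbers 224, 221, 431 and 718 (lipid-laden MDM 224, 221 and 718), which all later values follow, it was at 14.0, 28.4, 19.4 and 15.8 CPM in microglia and 23.6, 112, 104 and 71.6 CPM in lipid-laden microglia. In MDM it was at 75.0, 77.7, 95.0 and 106 CPM, and in lipid-laden MDM at 18.9, 29.4 and 25.7 CPM. The MDM groups stood apart, with every lipid-laden library below every other MDM library, and the microglial groups overlapped through the lipid-laden library 224. The effects were -1.84 in MDM and 2.00 in microglia, and their difference was -3.85 ± 0.56 (SE, adjusted p = 0.00314, edgeR).

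Hilpda, a droplet protein that inhibits the lipase Atgl and so protects stored triglyceride, followed the same course. Its levels were 105, 169, 117 and 147 CPM in microglia and 176, 420, 389 and 312 CPM in lipid-laden microglia. In MDM they were 322, 358, 336 and 433 CPM, against 200, 263 and 233 CPM in lipid-laden MDM. Neither origin's groups overlapped, and the lipid-laden microglia spread into the range of MDM without lipid load. The difference was -1.91 ± 0.34 (SE, adjusted p = 0.00703, edgeR). Hilpda was the called gene among the 13 tested lipid droplet and lipolysis genes.

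Ankrd37, an ankyrin-repeat gene induced by low oxygen, was at 7.85, 9.82, 11.5 and 8.60 CPM in microglia and 15.3, 24.7, 20.9 and 22 CPM in lipid-laden microglia. It was at 14.2, 16.1, 12.1 and 17.9 CPM in MDM and 5.30, 8.92 and 6.42 CPM in lipid-laden MDM. Every lipid-laden microglial library lay above, and every lipid-laden MDM library below, the other libraries of its origin, and the difference was -2.27 ± 0.44 (SE, adjusted p = 0.0110). Ldha, which makes lactate from pyruvate and was singled out after its values were seen, ranged over 1040 to 1481 CPM in microglia, 1668 to 2294 in lipid-laden microglia, 1544 to 1793 in MDM and 1269 to 1537 in lipid-laden MDM. Its difference of -0.84 ± 0.20 (SE, adjusted p = 0.0359) came mostly from microglia, with effects of 0.62 there and -0.22 in MDM.

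The remaining members of the list gave less stable calls. Hk1, the hexokinase that opens glycolysis, had a difference of -1.94 ± 0.45 (SE, adjusted p = 0.0315) and was called in 4 of 15 fits that left out 1 library. In lipid-laden MDM it was at 36.8, 15.9 and 17.7 CPM against 38.1, 40.5, 27.8 and 37.1 CPM in MDM, so that library 224 overlapped them. Pfkp, a phosphofructokinase, had a difference of -3.10 ± 0.76 (adjusted p = 0.0413), and Vegfa, the vessel growth factor, of -1.70 ± 0.43 (adjusted p = 0.0493). Each of these was called in 2 of the 15 fits.

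**Figure D2:**
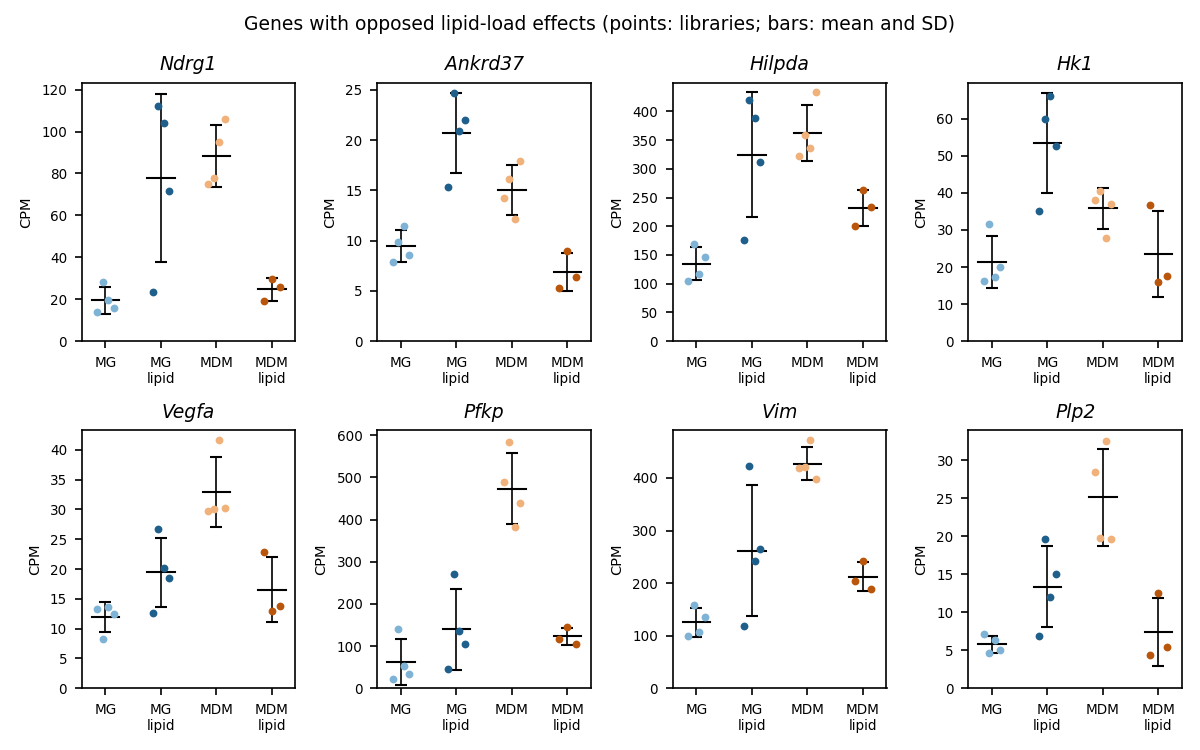
CPM per library (points) with mean and SD (bars) in microglia (MG), lipid-laden microglia (MG lipid), MDM and lipid-laden MDM (MDM lipid) for 8 genes with opposed effects, on linear axes from 0. In each panel the means go up from MG to MG lipid and down from MDM to MDM lipid, and the lipid-laden microglial libraries spread widely, with Ndrg1 from 23.6 to 112 CPM.

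Other genes with the same opposition served signalling, adhesion and the cytoskeleton. Jak2, the kinase of many cytokine receptors, was at 25.3, 20.7, 24.6 and 28.7 CPM in microglia and 41.8, 48.4, 30.8 and 27.3 CPM in lipid-laden microglia. In MDM it was at 243, 266, 247 and 164 CPM, falling to 66.0, 64.2 and 47.8 CPM in lipid-laden MDM. Only the MDM groups stood apart, and the difference of -2.54 ± 0.31 (SE, adjusted p = 0.00178, edgeR) was also called without the libraries numbered 718 (-2.76 ± 0.31, adjusted p = 0.0264). Vim, the intermediate filament of motile cells, had effects of -1.01 in MDM and 1.06 in microglia, where library 221 of the lipid-laden group reached 422 CPM against 118, 243 and 265 CPM in the others. Tes, a focal adhesion protein, differed by -2.07 ± 0.33 (adjusted p = 0.00406), Fxyd5, a regulator of the sodium pump, by -1.76 ± 0.28 (adjusted p = 0.00429) and Chp1, a cofactor of sodium-proton exchangers, by -1.86 ± 0.27 (adjusted p = 0.00314). Plp2, a membrane protein, differed by -2.96 ± 0.60 (adjusted p = 0.0144), and AA467197, which encodes a small protein linked to cytochrome c oxidase, by -4.20 ± 0.70 (adjusted p = 0.00522). In each of these the mean was higher with lipid in microglia and lower in MDM, and the microglial effect alone did not pass the adjusted test.

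The reverse opposition, higher in MDM and lower in microglia, included genes of membrane lipid and glycan metabolism. St3gal6, a sialyltransferase, was at 126, 88.8, 83.5 and 110 CPM in microglia and 58.6, 31.7, 52.6 and 36.7 CPM in lipid-laden microglia. It was at 15.1, 12.2, 17.4 and 23.4 CPM in MDM and 34.4, 36.5 and 34.2 CPM in lipid-laden MDM, so that the lipid-laden groups of both origins met near the same level. Its difference was 2.22 ± 0.35 (SE, adjusted p = 0.00388, edgeR), with effects of 1.04 in MDM and -1.19 in microglia. Pld1, a phospholipase D that makes phosphatidic acid, was at 164, 132, 165 and 145 CPM in microglia, 119, 99.9, 131 and 84.1 CPM in lipid-laden microglia, 34.9, 42.4, 38.9 and 34.4 CPM in MDM and 84.9, 97.1 and 99.0 CPM in lipid-laden MDM. Neither origin's groups overlapped, and the difference was 1.79 ± 0.23 (adjusted p = 0.00224). Maml2, a coactivator of Notch signalling, differed by 2.46 ± 0.38 (adjusted p = 0.00388), and Osbpl11, an oxysterol-binding protein, by 1.84 ± 0.29 (adjusted p = 0.00406).

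Homeostatic microglia genes had the more positive effect in MDM. Of 27 listed and tested, 18 were called more positive and 0 more negative. The list's median difference was 1.90, with median effects of 1.57 in MDM and -0.31 in microglia, and 20 members passed the test of the MDM effect alone, all higher. In microglia 23 of the 27 effects were negative, against 7704 of all 14843 genes tested.

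Sall1, a transcription factor that maintains microglial identity, was at 197, 138, 137 and 115 CPM in microglia and 175, 81.2, 77.5 and 107 CPM in lipid-laden microglia. It was at 3.83, 7.35, 9.11 and 9.87 CPM in MDM and 40.2, 49.7 and 43.0 CPM in lipid-laden MDM. The lipid-laden MDM stood above all MDM and below all microglial libraries of either kind, and the microglial groups overlapped. The difference was 2.97 ± 0.43 (SE, adjusted p = 0.00314, edgeR), and the level in lipid-laden MDM was 5.87-fold that in MDM. Its paralogue Sall3 differed by 4.09 ± 0.68 (adjusted p = 0.00522).

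P2ry12, the purinergic receptor that guides microglial processes, was at 1220, 773, 985 and 942 CPM in microglia, 1240, 320, 594 and 636 CPM in lipid-laden microglia, 129, 124, 162 and 175 CPM in MDM and 541, 476 and 447 CPM in lipid-laden MDM. The lipid-laden MDM libraries lay above all MDM, and the lipid-laden microglia spread from below them to the highest value of all. The difference was 2.22 ± 0.42 (SE, adjusted p = 0.0106). Tmem119, a surface marker of microglia, differed by 1.95 ± 0.43 (adjusted p = 0.0256) and Slc2a5, the fructose transporter, by 3.99 ± 0.87 (adjusted p = 0.0219). Slc2a5 was at 394 CPM in lipid-laden microglia 224 and 28.7 CPM in 221, while its 4 MDM libraries ranged from 5.01 to 19.9 CPM. The sums of the microglia markers given above moved with these genes, being parts of the same list.

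Neural and progenitor genes were among the largest positive differences. Cntn1, a neural adhesion molecule, was at 56.0, 102, 32.5 and 62.8 CPM in microglia, 30.2, 38.2, 24.7 and 101 CPM in lipid-laden microglia, 2.01, 1.17, 0.13 and 0.996 CPM in MDM and 22.7, 35.9 and 23.6 CPM in lipid-laden MDM. Its MDM groups stood far apart and its microglial groups overlapped, for a difference of 5.00 ± 0.78 (SE, adjusted p = 0.00388, edgeR). Ncan, a proteoglycan of brain matrix, differed by 4.85 ± 0.94 (adjusted p = 0.0110) and Sox11, a transcription factor of neural progenitors, by 4.20 ± 0.72 (adjusted p = 0.00563). Cntn1 was the called member of the 17 tested glioma and progenitor genes (1 of 17). The list's median difference was 3.42, or 2.61 with the 4 members that had a group at 3 counts or fewer set to a floor of 3 counts per group. The glioma marker sums given above moved with these genes, and the part of tumour cells in them was not tested.

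**Figure D3:**
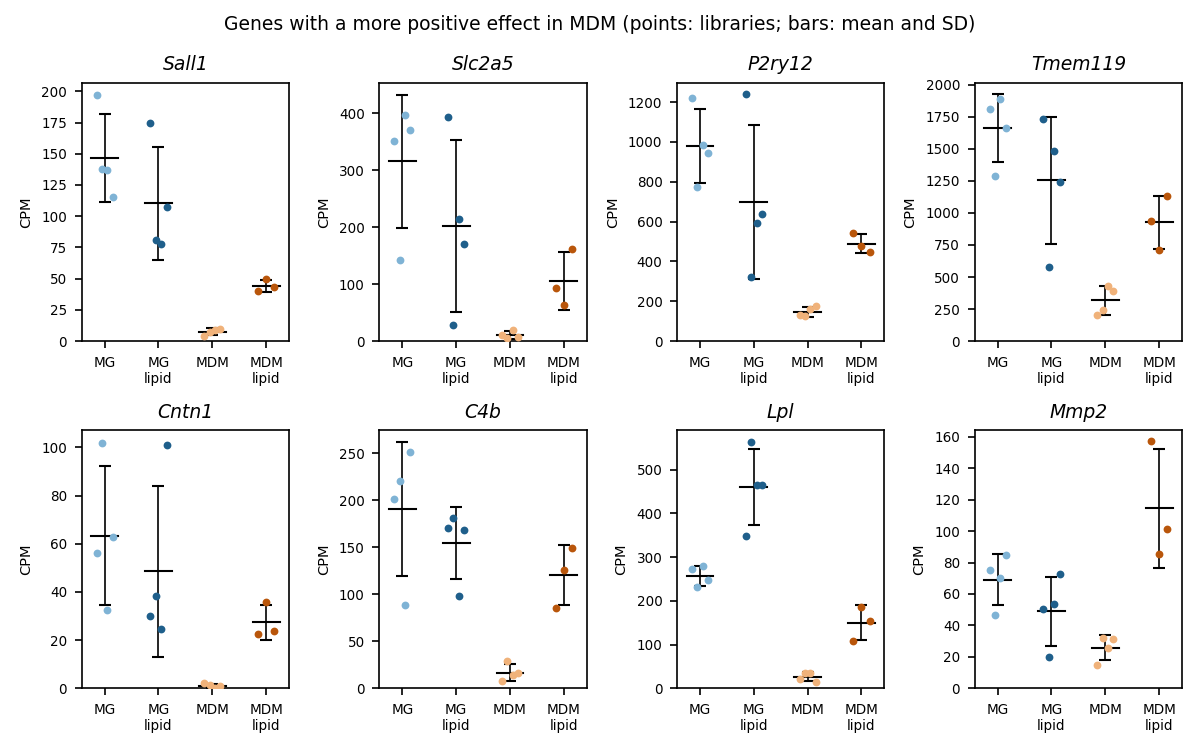
CPM per library (points) with mean and SD (bars) in the 4 groups for 8 genes whose effect was more positive in MDM, on linear axes from 0. By mean, MDM without lipid load was the lowest group in each panel, and lipid-laden MDM stood between MDM and the microglial groups except for Mmp2, where it was highest, at 85.3 to 157 CPM.

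Monocyte and MDM genes had the more negative effect in MDM. Of 29 tested, 7 were called more negative and 0 more positive, with a median difference of -1.16 (median effects -1.17 in MDM and 0.21 in microglia). Lsp1, an actin-binding protein of leukocytes, was at 62.7, 73.7, 60.9 and 59.4 CPM in microglia, 67.2, 111, 63.8 and 62.8 CPM in lipid-laden microglia, 1330, 986, 917 and 874 CPM in MDM and 263, 185 and 203 CPM in lipid-laden MDM. Each lipid-laden MDM library lay below all MDM and above all microglial libraries, and the difference was -2.49 ± 0.29 (SE, adjusted p = 0.00178, edgeR). Ifitm6, an interferon-induced membrane protein of monocytes, was at 230, 103, 134 and 170 CPM in MDM and 19.3, 11.1 and 14.5 CPM in lipid-laden MDM. It did not exceed 3.82 CPM in any microglial library, and its difference was -4.19 ± 0.64 (adjusted p = 0.00388). Ccr2 and Itga4, which guide monocytes into tissue, were not called. Ccr2 had effects of -2.16 in MDM and -1.19 in microglia (difference -0.96, approximate 95% interval -2.49 to 0.57), on microglial levels of at most 13.2 CPM, and the interval for Itga4 ran from -2.17 to 3.00.

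Genes of MHC class II presentation also had the more negative effect in MDM. Of 15 tested, 4 were called more negative and 0 more positive, and the median difference was -1.90 (median effects -1.83 in MDM and -0.16 in microglia). The 4 were the class II loading genes H2-DMb1 and H2-DMb2 and the genes of their inhibitor, H2-Oa and H2-Ob. H2-Oa was at 22, 16.3, 28.1 and 15.0 CPM in microglia, 21.1, 14.9, 13.3 and 9.46 CPM in lipid-laden microglia, 295, 145, 240 and 199 CPM in MDM and 33.5, 26.3 and 22.6 CPM in lipid-laden MDM. The lipid-laden MDM libraries overlapped the microglial range and stood far below MDM, for a difference of -2.52 ± 0.41 (SE, adjusted p = 0.00466). H2-Ob differed by -2.47 ± 0.40 (adjusted p = 0.00442), H2-DMb2 by -2.40 ± 0.43 (adjusted p = 0.00763) and H2-DMb1 by -1.68 ± 0.32 (adjusted p = 0.0110).

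Dendritic cell markers are given beside these because class II genes are also high in dendritic cells. The 19 tested markers had median effects of -2.88 in MDM and -0.91 in microglia and a median difference of -1.20. For the difference of effects, 0 of the 19 were called more positive and 0 more negative. Several of the microglial effects rest on few counts. Cd209a had 111 counts in microglia and 0 in lipid-laden microglia, Dpp4 109 and 0, and Flt3 98 and 23. Irf8, by contrast, had 17490 and 16178. The absence of calls therefore does not show an equal effect in both origins. In MDM 17 of the effects were negative and 2 positive, where 7013 of all 14843 genes were negative. For the MDM effect alone, 8 passed the test as lower (2.96% of all genes did) and 2 as higher. Examples of lower mean levels, in MDM and in lipid-laden MDM, are 301 and 29.9 CPM for Cd209a, 456 and 48.2 CPM for Ccr7 and 142 and 14.2 CPM for Flt3. The 2 with higher means were Irf8, at 274 and 418 CPM, and Sirpa, at 464 and 813 CPM. Their part in the class II result was not tested.

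Transcription factors of myeloid identity differed in both directions, with 4 called more positive and 2 more negative of 33. Vdr, the vitamin D receptor, was at 59.1, 67.4, 92.8 and 56.3 CPM in MDM and 3.25, 3.42 and 3.59 CPM in lipid-laden MDM. It had 0 counts in the 4 microglial libraries and 68 in lipid-laden microglia, all in libraries 221 and 718, which is at least 20.9-fold higher against a floor of 3 counts over the group. The difference was called (adjusted p = 0.0110), and no fitted size is given because of the group at 0. Bhlhe40, a repressor active in inflammatory macrophages, was at 1680, 1240, 1220 and 1400 CPM in MDM and 574, 299 and 341 CPM in lipid-laden MDM, while microglia of either kind stayed between 116 and 258 CPM. Its difference was -2.14 ± 0.36 (SE, adjusted p = 0.00522, edgeR).

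**Figure D4:**
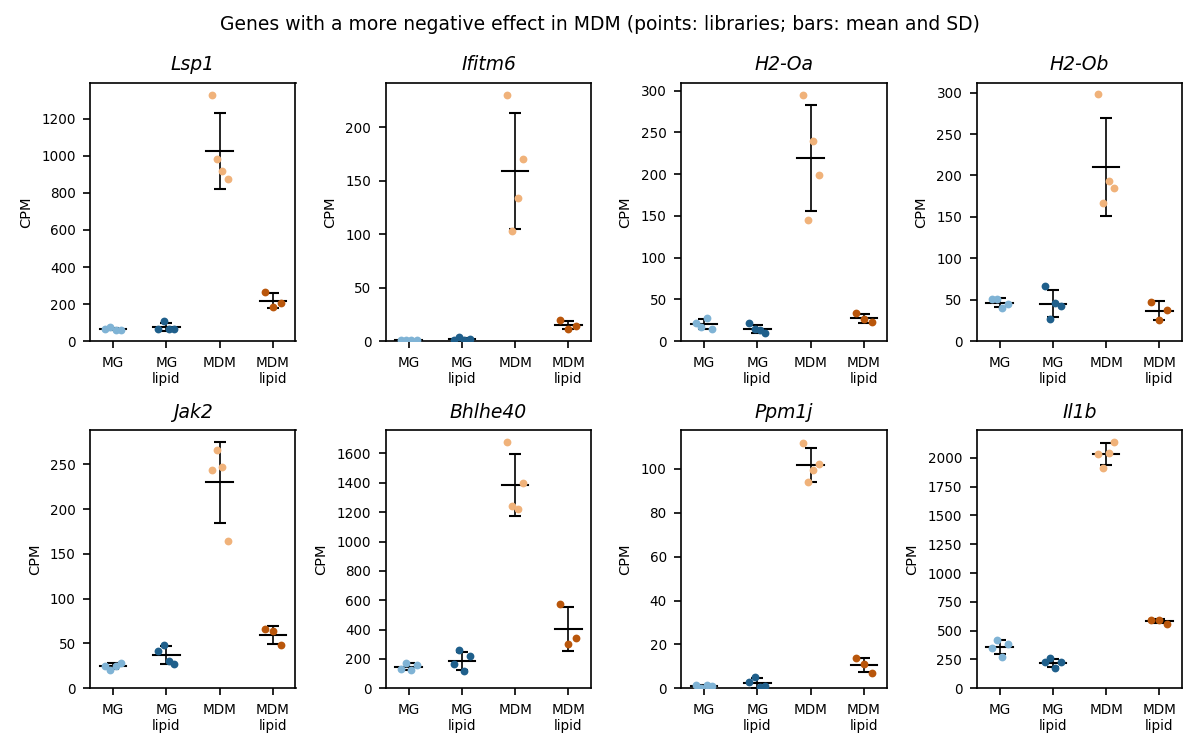
CPM per library (points) with mean and SD (bars) in the 4 groups for 8 genes whose effect was more negative in MDM, on linear axes from 0. By mean, MDM without lipid load was the highest group in each panel, and Il1b fell from 1910 to 2140 CPM in MDM to 562 to 595 CPM in lipid-laden MDM.

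Lysosomal genes mostly had the more positive effect in MDM, with 35 of 38 differences positive, while genes of lipid uptake (14 of 21) and of the lipid-associated macrophage state (18 of 28) were more divided. Over all genes tested, 54.8% of the differences were positive. Of the 28 lipid-associated macrophage and disease-associated microglia genes, 7 were called more positive and 0 more negative (median difference 0.50). The counts were 7 and 0 of 38 for lysosomal genes (median 0.62) and 3 and 0 of 21 for lipid uptake (median 0.72). Trem2, a receptor for lipids and lipoproteins, was at 1000, 773, 846 and 1010 CPM in microglia, 1190, 746, 908 and 823 CPM in lipid-laden microglia, 275, 344, 313 and 339 CPM in MDM and 751, 770 and 884 CPM in lipid-laden MDM. Lipid-laden MDM thus reached the microglial range, microglia overlapped with and without lipid, and the difference was 1.32 ± 0.22 (SE, adjusted p = 0.00474, edgeR). Mertk, a receptor for dying cells, differed by 1.60 ± 0.27 (adjusted p = 0.00522).

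Lpl, the lipase that frees fatty acids from lipoproteins, was at 272, 231, 279 and 247 CPM in microglia, 349, 563, 466 and 466 CPM in lipid-laden microglia, 21.6, 35.5, 36.0 and 14.8 CPM in MDM and 108, 187 and 155 CPM in lipid-laden MDM. No lipid-laden library overlapped the others of its origin, so the difference of 1.64 ± 0.36 (SE, adjusted p = 0.0245) was one of size, 5.58-fold in MDM against 1.79-fold in microglia. Ctsb, a lysosomal protease, was at 4530, 4850, 5080 and 5380 CPM in MDM and 11600, 10300 and 10800 CPM in lipid-laden MDM, against 9870, 10400, 9040 and 9980 CPM in lipid-laden microglia, so the lipid-laden groups overlapped. Its difference was 0.92 ± 0.15 (adjusted p = 0.00406). Cd63, a lysosomal tetraspanin, differed by 1.29 ± 0.18 (adjusted p = 0.00314) and Ctsl, another lysosomal protease, by 1.15 ± 0.18 (adjusted p = 0.00388).

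Sterol and iron handling differed in a few genes. Abca1, the transporter that loads cholesterol onto apolipoproteins, was the called gene of 19 efflux and liver X receptor target genes, with a difference of 1.10 ± 0.23 (SE, adjusted p = 0.0190). It was at 253, 240, 258 and 256 CPM in MDM and 770, 420 and 700 CPM in lipid-laden MDM, while microglia ran from 441 to 597 and lipid-laden microglia from 594 to 690 CPM. Cholesterol synthesis went the other way, with 3 of 24 genes called more negative and 0 more positive: Pmvk (-1.40 ± 0.29, adjusted p = 0.0153), Cyp51 (-1.36 ± 0.31, adjusted p = 0.0291) and Srebf2, the factor that controls the pathway (-2.03 ± 0.52, adjusted p = 0.0493). Srebf2 was called in 2 of 15 fits that left out 1 library and Cyp51 in 9. Hmox1, which breaks down heme, was at 1390, 1440, 1060 and 1470 CPM in microglia, 1810, 2240, 2570 and 2950 CPM in lipid-laden microglia, 321, 411, 426 and 410 CPM in MDM and 1250, 1250 and 1500 CPM in lipid-laden MDM. Both origins were higher with lipid and did not overlap, and the difference of 0.93 ± 0.23 (adjusted p = 0.0404) was called in 2 of the 15 fits. Slc40a1, the iron exporter, differed by 2.29 ± 0.50 (adjusted p = 0.0233).

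Several well-known genes of lipid-laden macrophages had no called difference in the edgeR fit without a block. Spp1 had effects of 0.94 in MDM and 0.89 in microglia, a difference of 0.05 with an approximate 95% interval from -0.74 to 0.84. Gpnmb had 2.67 and 1.99, with an interval from -1.27 to 2.63, and Plin2, the droplet coat protein, 0.90 and 0.53, with an interval from -0.28 to 1.01. Apoe had an interval from 0.02 to 0.86 (adjusted p = 0.327), Abcg1 from 0.36 to 1.21 (adjusted p = 0.0689) and Lgals3 from -1.95 to -0.41 (adjusted p = 0.131). These 2 calls depended on the fit: the adjusted p was 0.0244 for Abcg1 and 0.0233 for Lgals3 with the replicate number as a block in edgeR, and 0.0203 and 0.0281 with DESeq2. Cd36 and Arg1 had intervals of -2.13 to 4.87 and -3.58 to 1.89, and library 221 was far above the rest in both microglial groups for these genes. The intervals show sizes that these libraries allow, and a missed threshold does not show that the effects were equal.

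Complement genes mostly had the more positive effect in MDM, with 15 of 18 differences positive, against 54.8% of all genes tested. Of the 18, 7 were called more positive and 1 more negative, the latter being Cfp (properdin). C4b was at 202, 221, 89.2 and 252 CPM in microglia, 171, 181, 97.9 and 169 CPM in lipid-laden microglia, 7.55, 28.8, 13.9 and 16.2 CPM in MDM and 86.0, 126 and 149 CPM in lipid-laden MDM. Its MDM groups stood apart, the microglial groups overlapped, and the difference was 3.16 ± 0.53 (SE, adjusted p = 0.00530, edgeR). C1qc of the initiating complex differed by 1.09 ± 0.18 (adjusted p = 0.00554) and the receptor C5ar1 by 1.42 ± 0.27 (adjusted p = 0.0108).

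Chemokines and inflammatory cytokines were mixed, where 54.8% of all genes tested had a positive difference. Among 27 chemokines and receptors, 13 differences were positive and 14 negative, and 5 were called more positive and 0 more negative. Among 22 cytokines, 9 were positive and 13 negative, and 1 was called more positive (Il1a) and 2 more negative (Il1b and Tnfsf9). Ccl2, which attracts monocytes, differed by 1.76 ± 0.29 (adjusted p = 0.00474), with effects of 1.41 in MDM and -0.35 in microglia. Ccl3 differed by 1.33 ± 0.24 (adjusted p = 0.00857) and Ccl4 by 1.00 ± 0.22 (adjusted p = 0.0230), each with effects of opposite sign. The interleukin-1 genes parted from each other. Il1a was at 1280, 1540, 1030 and 1410 CPM in microglia, 1160, 836, 769 and 877 CPM in lipid-laden microglia, 393, 439, 423 and 486 CPM in MDM and 759, 899 and 655 CPM in lipid-laden MDM, for a difference of 1.35 ± 0.23 (adjusted p = 0.00530). Il1b was at 348, 420, 274 and 387 CPM in microglia, 224, 259, 174 and 228 CPM in lipid-laden microglia, 2030, 1910, 2040 and 2140 CPM in MDM and 595, 590 and 562 CPM in lipid-laden MDM. Il1a was therefore lower with lipid in microglia and higher in MDM, whereas Il1b was lower in both and did not overlap in either, with the larger effect in MDM (difference -1.11 ± 0.21, adjusted p = 0.00928). Tnfsf9, a costimulatory ligand, differed by -1.89 ± 0.36 (adjusted p = 0.0110).

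A few genes placed lipid-laden MDM above every other library and not only above MDM, in some cases by a narrow margin. All 3 lipid-laden MDM libraries lay above all 12 others in 7 of the 375 called genes, and in 78 (0.526%) of the 14843 genes tested. The 7 were Acp2, Ang, Dtnbp1, Gdf3, Mmp2, Nrp1 and Rapsn, of which all but Gdf3 and Mmp2 were named after their values were seen. For Mmp2, Dtnbp1 and Nrp1 the ranges nearly met. Their lowest lipid-laden MDM libraries were at 85.3, 69.2 and 276 CPM, and the highest other libraries at 84.6, 68.5 and 276 CPM. Gdf3, a ligand of the TGF-beta family, was at 68.4 to 94.8 CPM in lipid-laden MDM, 27.1 to 51.4 CPM in MDM and at most 6.10 CPM in microglia, and in lipid-laden microglia it was at 0 in 3 libraries and 0.915 CPM in the fourth. Its difference was 4.62 ± 1.03 (SE, adjusted p = 0.0259, edgeR) and was called in 8 of 15 fits that left out 1 library. Its size rests on the 9 counts of lipid-laden microglia 718, without which it was 8.81. Mmp2, a gelatinase, was at 157, 85.3 and 101 CPM in lipid-laden MDM and 14.9, 31.7, 25.6 and 31.3 CPM in MDM. It was at 75.0, 46.5, 69.9 and 84.6 CPM in microglia and 50.2, 19.8, 53.4 and 72.9 CPM in lipid-laden microglia. Its difference was 2.63 ± 0.50 (adjusted p = 0.0110, edgeR). Lox, which cross-links collagen, had 0 counts in MDM and 135 in lipid-laden MDM, at least 58-fold higher against a floor of 3 counts over the group, and was called (adjusted p = 0.0203). It was not highest there: its means were 4.75 CPM in lipid-laden MDM, 11.5 CPM in microglia and 28.6 CPM in lipid-laden microglia. Lipid-laden microglia also held the highest endothelial and mural sums given above. The part of those cells in the levels of Lox and Vim was not tested.

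Kynu, an enzyme of tryptophan breakdown, was the called gene with the larger decrease in microglia. It had 98 counts in microglia and 0 in lipid-laden microglia, at least 35.5-fold lower against the same floor, and 2698 counts in MDM and 795 in lipid-laden MDM. The call (adjusted p = 0.0348) held in 3 of 15 fits that left out 1 library. Haao, a later enzyme of the pathway, had the more negative effect in MDM, with a difference of -2.86 ± 0.66 (adjusted p = 0.0315) and a call in 7 of those fits. Of the 375 called genes, 36 had a group with 3 counts or fewer, and fitted sizes for such genes are not given.

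Dividing-cell genes were mostly higher with lipid in both origins, with the larger median effect in MDM (1.71, against 0.38 in microglia). In MDM 29 of the 30 effects were positive, and in microglia 27, against 7747 and 7060 of all 14843 genes tested. Of 30 proliferation genes, 5 were called more positive and 0 more negative, and 21 passed the test of the MDM effect alone, all higher, with a median difference of 1.29. Ccnb1, the mitotic cyclin, was at 7.05, 20.6, 14.8 and 11.7 CPM in MDM and 55.7, 123 and 76.1 CPM in lipid-laden MDM, against 71.8 to 107 CPM in microglia and 114 to 179 CPM in lipid-laden microglia. Lipid-laden groups did not overlap the others in either origin, and the difference was 2.00 ± 0.43 (SE, adjusted p = 0.0203). Aspm, which organises the spindle, differed by 3.38 ± 0.51 (adjusted p = 0.00388).

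**Figure D5:**
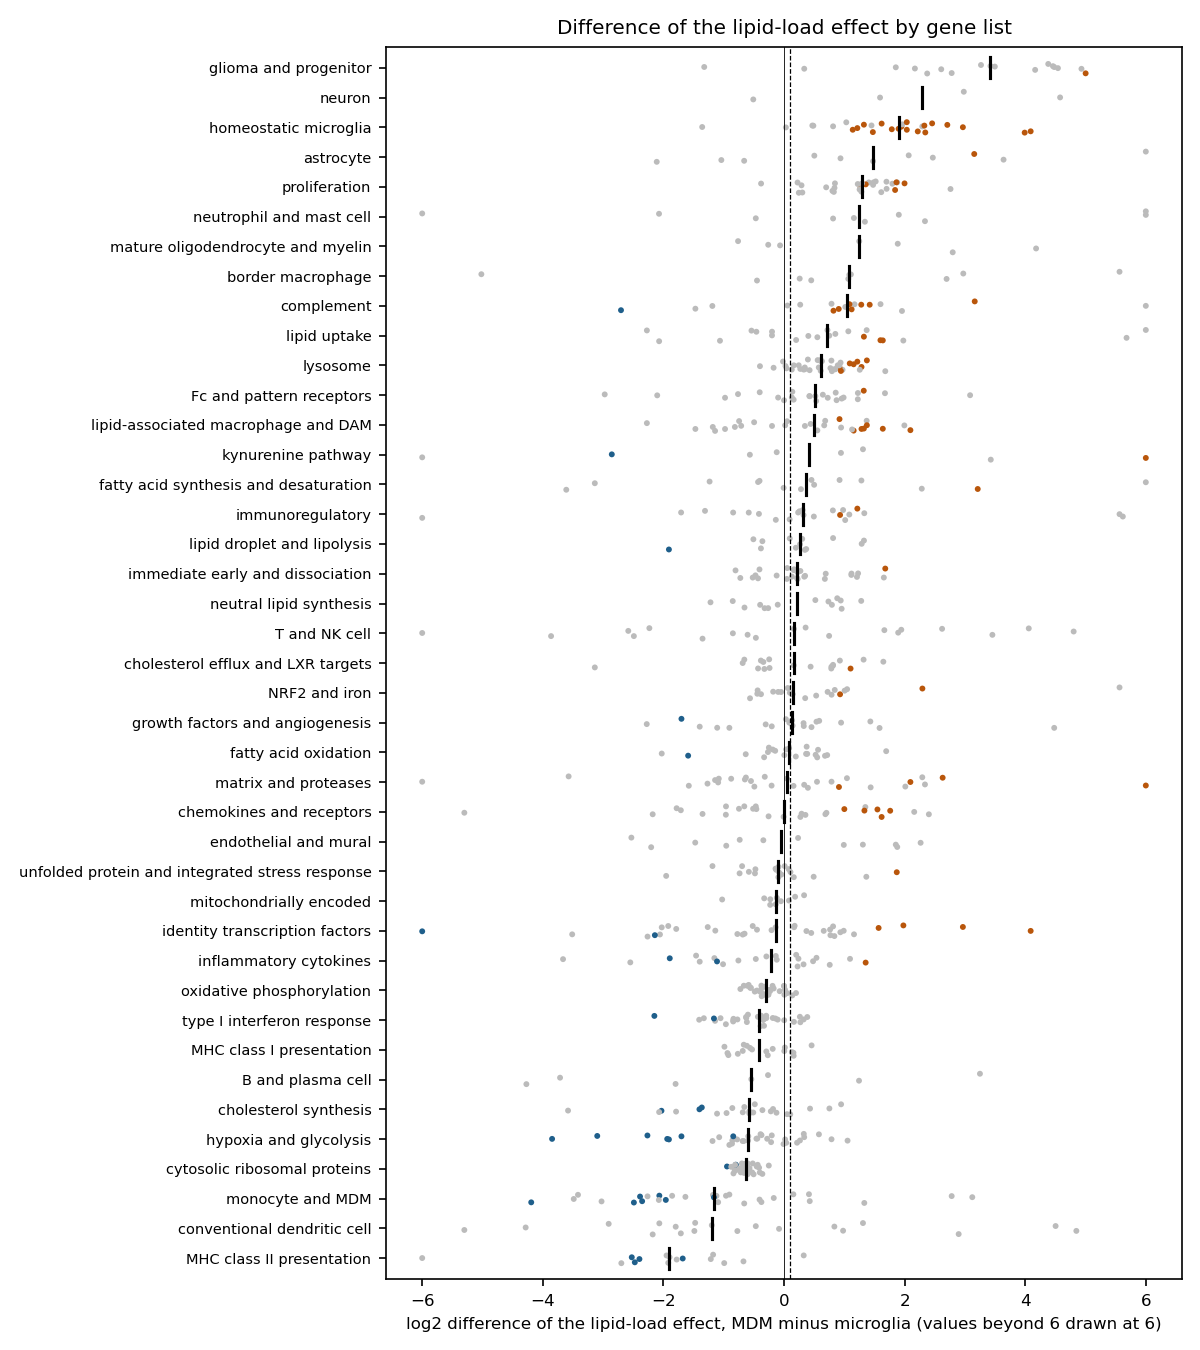
Log2 difference of the effects (MDM minus microglia) for every tested member of the 41 gene lists, 1 point per gene and 1 row per list, ordered by the list's median (black bar). Orange points were called more positive in MDM, blue points more negative and grey points not called, values beyond 6 are drawn at 6, and the dashed line is the median of all genes (0.10). Homeostatic microglia genes (median 1.90) sit to the right and MHC class II genes (median -1.90) to the left.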

How the data were processed

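The authors deposited raw, whole-number read counts for each gene beside its symbol and position, per the file headers. Per the labels' protocols, cDNA was made with oligo-dT primers and a template switch. The submitters' processing notes name mm10. Aligner, counter and strand setting are not given in the sources, so overlapping and antisense genes cannot be told apart, and counts are uncertain for H2, Ifitm, Ifi205, C4b, Ccl12 and ribosomal protein genes, which have near-identical copies. The 105 named genes have the same start and end in GENCODE M21.

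Libraries were grouped by title. With edgeR 4.0.16 (R 4.3.3), 14843 of 55486 genes passed filterByExpr (minimum count 10, minimum total 15). All 15 libraries entered 1 quasi-likelihood fit with TMM factors, 1 coefficient per group and no covariate, and the contrast was (lipid-laden MDM minus MDM) minus (lipid-laden microglia minus microglia), with Benjamini-Hochberg adjustment over all genes. Standard errors are the fold change over the root of F, and approximate 95% intervals use them. CPM were computed from the counts. The members, lists and tests were chosen with earlier results of these data known. Named genes were the 15 largest differences in each direction among called genes whose mean log2 CPM was 3 or more, the 10 called genes of opposed effects with the smallest p, 17 fixed genes and up to 4 called members per list. No replicate pair was alike within counting noise (chi-square over degrees of freedom at least 17.3). On simulated counts of 14127 genes the fit recovered 6% of genes with a 2-fold and 49% with a 4-fold difference and called 2 unchanged genes. Alternatives were DESeq2 1.42.0, limma 3.58.1 (voom), other scalings and filters, a replicate block and left-out libraries. Floors and bounds cover counting error only. The row that names no gene held 0 counts.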

Additional observations from a re-analysis of the deposited data

Results flagged for a closer look

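The effect of lipid load differed between the origins, by the test of the difference itself, in 375 of 14843 genes (edgeR, adjusted p under 0.05), which are described in the report.

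In groups of 4 libraries, 22 of 312 combinations of a named gene and a group held a library that stood far from its 3 companions (7.05%), where chance flags about 1 in 20. Of these 22, 6 were in lipid-laden microglia 221 (CPM): Arg1 at 4630, Cd36 at 349, Fkbp14 at 33.6, Lsp1 at 111, Plod1 at 529 and Tln2 at 13.1. Lipid-laden microglia also held C4b at 97.9 in library 431, Gdf3 at 0.915 and Itga4 at 4.27 in library 718, and Tlr7 at 192 in library 224. In microglia these were Arg1 at 2220, Cd36 at 292 and AA467197 at 6.61 in library 221, Abca1 at 441 and Traf4 at 3.62 in library 431, and Cd63 at 1720 and Ifit1bl1 at 25.2 in library 718. In MDM they were C1qc at 1500, Hmox1 at 321 and Tlr7 at 56.2 in library 224, and C5ar1 at 179 and Vegfa at 41.6 in library 431. The lipid-laden MDM group has 3 libraries and was not tested in this way.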

How the results depend on the processing

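Counts are given as all calls, more positive in MDM, more negative and opposite in sign, and were 375, 237, 138 and 282. They stayed within 1.5 times under RLE scaling (380, 215, 165, 285), upper-quartile scaling, both other filters and limma-voom. The split was 63.2% more positive. DESeq2 gave 960, 546, 414 and 724. With a replicate block edgeR gave 657, 418, 239 and 481, DESeq2 gave 1565, 859, 706 and 1156, and a replicate block by number-matched differences gave 198, 123, 75 and 156, with 109 of the 198 among the 375 and 58 of 95 named calls lost. In 2 of 6 pairs of groups every same-number correlation was over 0.1, and each of the 15 libraries correlated best with its own number, a hint from the data and not the design. Leaving out 1 library gave 186 to 452, 113 to 263, 73 to 189 and 138 to 384. Leaving out a whole number left fewer libraries: 232, 157, 75 and 177 without 431, 136, 88, 48 and 109 without 224, and 2, 1, 1 and 2 without 718. Without both lipid-laden libraries of number 221, chosen after seeing the data, 286 were called, of which 227 were among the 375. Of the 105 named genes 95 were called. In 2755 refits of these, 2227 were still called, 528 were not and 0 reversed.

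Signs turned only in named genes that were not called. Itga4 (0.41) was -0.022 with the replicate block, -0.021 with DESeq2 and the block, -0.015 without number 221 and -0.45 without 224. Spp1 (0.05) was -0.0051 with RLE scaling, -0.0051 with DESeq2, -0.013 with limma-voom, -0.22 without number 224 and -0.024 without 718. Ccr2 (-0.96) was 0.24 with limma-voom. Ranges over single libraries left out were -1.03 to 3.89 for Cd36, -3.02 to 0.67 for Arg1, -0.059 to 3.09 for Itga4, -0.23 to 0.25 for Spp1 and -0.36 to 1.23 for Gpnmb. The cause was not tested. Of simulated 2-fold differences 6% were recovered, so differences of that size could be missed. The simulation gave each gene 1 mean over all groups and changed lipid-laden MDM only, which the real groups do not follow.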

Other observations

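Genes of protein synthesis and respiration had small differences that pointed mostly one way. Of all genes tested, 45.2% had a more negative effect in MDM. All 30 listed cytosolic ribosomal protein genes had a more negative effect in MDM (median -0.63), and 29 of them had effects of opposite sign, against 47.2% of all genes tested. The median was -0.68 with RLE and -0.58 with upper-quartile scaling. Of the 30, 2 were called (Rplp0 and Rpl18), in 7 and 4 of 15 fits that left out 1 library. Of 30 oxidative phosphorylation genes, 24 had a more negative effect in MDM (median -0.29), and the 30 effects in microglia were all positive. Over all 14843 genes tested, 7060 effects in microglia were positive.

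Type I interferon response genes had a median difference of -0.41, with 26 of 32 negative and 2 called, Isg20 and Ifitm3. Border macrophage markers had effects of the same sign by median, 1.24 in MDM and 0.39 in microglia, and their sum was 1510 to 2030 CPM in lipid-laden MDM against 954 to 1390 CPM in MDM. The largest means in that sum were those of Stab1 (237 CPM in MDM, 659 in lipid-laden MDM) and Ms4a7 (385 and 627). Stab1 was also at 365 CPM in microglia. In MDM 8 of the 10 effects were positive and 2 negative, among the latter Clec10a (225 and 19.2 CPM). Over all 14843 genes tested, 7747 effects in MDM were positive. Immediate early genes, which also respond to tissue dissociation, had negative effects in microglia in 26 of 26 (median -0.60) and a median effect of -0.34 in MDM. Over all 14843 genes tested, 7704 effects in microglia were negative.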
